A study of Mus musculus with 6 samples.

Results

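Complement is a set of secreted and membrane proteins that marks microbes and dying cells. The classical, lectin and alternative routes of entry meet at the cleavage of C3, which leaves C3b on the target and releases the peptide C3a. Further cleavage of C5 gives C5a. Both peptides are read by G protein-coupled receptors on myeloid cells, and dendritic cells and macrophages make several of the proteins themselves, C1q above all. The genes described are 9 complement components and receptors, chosen by symbol from the 55740 gene models of the deposited table. They are the C1q chain genes C1qa, C1qb and C1qc, the central component gene C3, the alternative pathway genes Cfb and Cfp, and the peptide receptor genes C3ar1, C5ar1 and C5ar2.

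RNA was sequenced from mouse bone marrow-derived dendritic cells of strain C57BL/6J, which are antigen-presenting cells grown in culture. There were 3 samples treated with 18 mM lysine, a cationic amino acid, for 6 h, and 3 samples given PBS, a salt buffer, over the same time. Whether the replicates came from different cultures or mice is not stated in the labels. The p-values therefore describe how far these 6 samples scatter, possibly for technical reasons alone. No growth factor of the culture is named either. Values are TPM, a transcript abundance scaled by transcript length and by library total, so levels can be compared between genes, but they keep no sequencing depth, which is unknown here.

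The dendritic cell marker genes were present, with Cd74 at 2999 to 4046 TPM in lysine samples and 2735 to 4141 TPM in PBS samples, and Itgax above 347 TPM throughout. Replicate 3 of both groups stood apart. It had the highest H2-Ab1, a class II histocompatibility gene (677 TPM with lysine, 741 TPM with PBS, and between 319 and 360 TPM in the other 4 samples). It also had the highest summed level of 6 T and NK cell markers (17.8 TPM with lysine, 25.4 TPM with PBS, and 2.36 to 8.92 TPM elsewhere), led by Trac. Several complement genes were highest in the same libraries, so their results are also given without them.

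With lysine, 4 of the 8 complement genes tested fell, C1qb, Cfb, C3ar1 and C5ar1, and none rose. Across all 12539 genes tested, 55.1% were called changed and 29.3% were called lower, so a count of 4 lower among 8 stands beside a high background. The lysine and PBS samples did not overlap for the same 4 genes, while 63.4% of all genes tested did not overlap and 33.7% did so with lysine lower. The test was limma with an intensity trend on log2(TPM + 1), two-sided, with a Benjamini-Hochberg adjusted p under 0.05 over all genes tested. The median log2 fold change was -0.55 over the 8 genes and -0.05 over all genes. Each of the 8 had at least 1 TPM in all 6 samples, and C5ar2 was below the filter of 1 TPM in at least 3 samples. In these bulk samples, fewer cells of a type and less RNA per cell cannot be told apart.

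**Figure D1:**
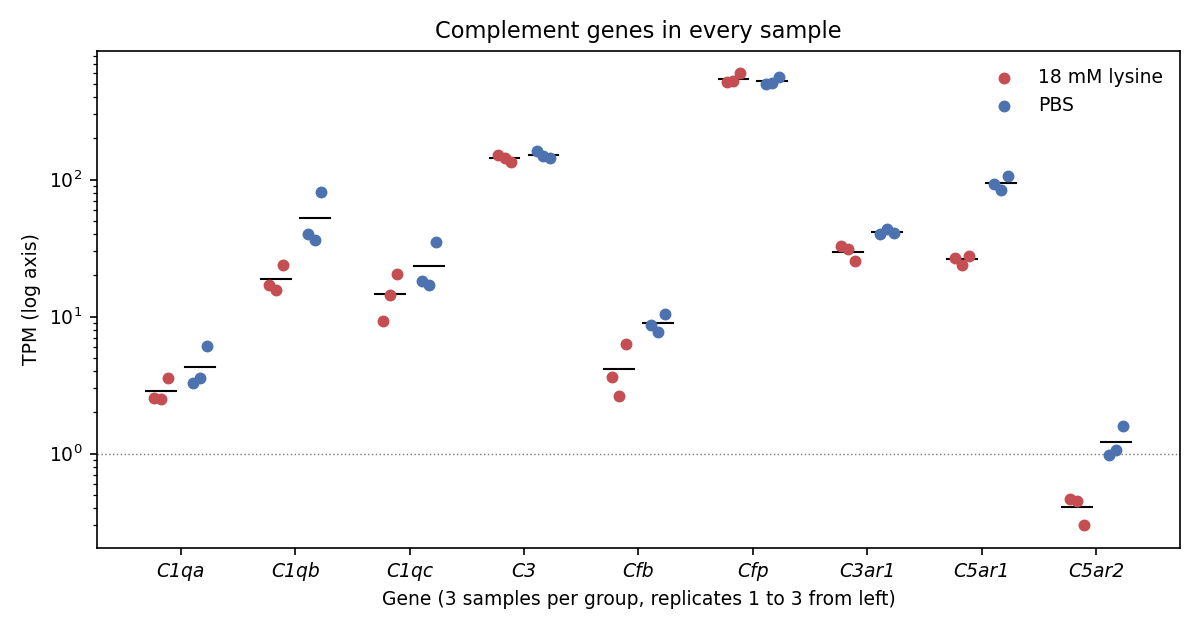
TPM of the 9 complement genes in each sample on a log axis, with lysine samples in red to the left of PBS samples in blue, a black line at each group mean and a dotted line at 1 TPM. The groups are apart for C1qb, Cfb, C3ar1, C5ar1 and C5ar2, and the points of Cfp (503 to 596 TPM) and C3 (135 to 161 TPM) overlap.

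Promoter sequence is shown for members that were lower with lysine and for C1qc beside C1qb. RefSeq (GRCm38.p6) gave promoters for 7 of the 9 genes, not for C1qa and Cfb. The lines below hold only bases that precede annotated exons, read 5′ to 3′ on the minus strand, with matches to the core GAGGAA, bound by PU.1 and other ETS factors of myeloid cells, to the MAF half-site TGCTGA and to the C/EBP-like TTGCNNAA in capitals, on either strand.
C1qb (chr4:136886201-136886450): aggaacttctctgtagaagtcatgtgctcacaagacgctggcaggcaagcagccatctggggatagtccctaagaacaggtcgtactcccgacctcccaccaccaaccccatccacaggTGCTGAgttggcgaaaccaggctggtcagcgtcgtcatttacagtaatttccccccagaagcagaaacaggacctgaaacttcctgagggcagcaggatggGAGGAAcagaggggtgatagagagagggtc
C1qc (chr4:136893066-136893164): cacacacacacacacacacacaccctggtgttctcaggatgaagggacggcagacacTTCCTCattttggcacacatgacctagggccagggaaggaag
C3ar1 (chr6:122856162-122856407): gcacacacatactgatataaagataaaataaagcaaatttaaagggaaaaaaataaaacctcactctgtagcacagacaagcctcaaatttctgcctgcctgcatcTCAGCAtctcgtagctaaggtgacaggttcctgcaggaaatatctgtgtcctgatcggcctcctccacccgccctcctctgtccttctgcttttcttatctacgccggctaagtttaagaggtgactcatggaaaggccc
C5ar1 (chr7:16259541-16259588): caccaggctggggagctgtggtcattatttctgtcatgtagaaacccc
C5ar2 (chr7:16244155-16244404): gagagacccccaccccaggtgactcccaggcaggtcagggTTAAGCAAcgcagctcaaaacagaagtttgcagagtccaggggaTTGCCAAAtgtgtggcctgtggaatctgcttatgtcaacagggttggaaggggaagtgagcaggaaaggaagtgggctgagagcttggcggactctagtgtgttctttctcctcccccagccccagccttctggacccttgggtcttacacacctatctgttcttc

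In the 250 bases before the RefSeq start, C1qb held the ETS core 30 bases and the MAF half-site 131 bases upstream, and C1qc held the ETS core 193 bases upstream. The RefSeq start of C1qc lies inside the GENCODE gene, so that core lies fewer bases from the gene itself. C3ar1 held a MAF half-site 144 bases upstream. In C5ar1 a MAF half-site stood 17 bases upstream of the RefSeq start, which lies inside the GENCODE gene and so outside the stretch printed. C5ar2 has 2 RefSeq promoters, of which the one printed held TTGCNNAA 210 and 166 bases upstream and the other held the ETS core 26 bases upstream. C3, not printed, held the MAF half-site 182 bases and TTGCNNAA 45 bases upstream, and Cfp held none of the motifs shown in capitals. For comparison, GAGGAA occurred in 23.3%, TGCTGA in 16.1% and TTGCNNAA in 9.56% of 32851 promoters of that length, on either strand. A loose kappaB motif matched in every one of the 7 genes but C5ar1, overlapped the second TTGCNNAA match of C5ar2, and occurred in 45.8% of promoters. The paired motif of interferon regulatory factors and the C/EBP-ATF composite TGATGNAA, found in 2.98% and 3.45% of promoters, matched none of the 8 promoters of these genes. Such matches describe letters only.

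The receptor C5ar1, through which C5a attracts and activates myeloid cells, showed the largest change of the complement genes tested. Its lysine samples held 26.98, 23.66 and 27.84 TPM, against 92.1, 84.18 and 106.66 TPM in PBS samples. All lysine values lay in a narrow band well below the lowest PBS value. The mean was 26.2 ± 2.21 TPM with lysine and 94.3 ± 11.4 TPM with PBS (SD, n = 3 each), which is 3.61-fold lower (log2 fold change -1.81 ± 0.11 SE, limma adjusted p = 5.93e-05). Of all genes tested, 0.95% had a lower fold change than C5ar1. C5ar1 lies on chromosome 7, 16246743 to 16259540 on the minus strand of GRCm38 (ENSMUSG00000049130).

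C5ar2, its neighbour 2.59 kb away on the same strand, encodes a second C5a receptor that does not couple to G proteins. It was near the limit of measurement, with 0.47, 0.45 and 0.3 TPM in lysine samples, against 0.97, 1.07 and 1.58 TPM in PBS samples. The groups did not overlap, at means of 0.407 ± 0.0929 TPM with lysine and 1.21 ± 0.327 TPM with PBS (SD, n = 3 each). Tested with no filter beyond a value above 0, C5ar2 was called lower (log2 fold change -0.64 ± 0.14 SE, limma adjusted p = 0.0227), on a scale that understates the change of so low a gene. A short snRNA model, Gm26473, lies inside C5ar2 on the same strand and was listed at 24.18 TPM in PBS replicate 1 and at 0 in the other samples, so reads there could be divided between them.

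C5ar1 exceeded C5ar2 by 57.4, 52.6 and 92.8 times in lysine samples and by 94.95, 78.7 and 67.5 times in PBS samples. These ratios overlapped between the groups. The mean log2 ratio of C5ar1 to C5ar2 was 6.03 ± 0.44 with lysine and 6.32 ± 0.25 with PBS, a difference of -0.283 (two-sided exact permutation test, p = 0.4, where the smallest possible is 0.1). The difference was -0.188 without lysine replicate 1, -0.125 without lysine replicate 2, -0.156 without PBS replicate 1 and -0.535 without lysine replicate 3. With 3 samples a group this test could not reach 0.05, so it does not show whether the C5a receptor genes changed alike. The nearest tested genes on either side of the pair, each 12.5 kb away, were also lower with lysine. Dhx34, an RNA helicase, averaged 4.48 TPM with lysine and 10.98 TPM with PBS (limma adjusted p = 0.000281). Inafm1 was listed at 0.82, 0.59 and 0 TPM in lysine samples, against 1.98, 2.29 and 1.78 TPM in PBS samples (limma adjusted p = 0.00904). Inafm1 reached 1 TPM only with PBS, so it entered the test through the group where it was higher, which favoured a lower call.

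C3ar1, the receptor of C3a, changed less. It had 32.65, 31.31 and 25.61 TPM in lysine samples, against 39.78, 43.5 and 40.7 TPM in PBS samples. The groups did not overlap, and here lysine replicate 3 was the lowest sample, unlike for the C1q genes. The means were 29.9 ± 3.74 TPM with lysine and 41.3 ± 1.94 TPM with PBS (SD, n = 3 each), 1.38-fold lower (log2 fold change -0.46 ± 0.10 SE, limma adjusted p = 0.00824). Without replicate 3 of both groups the log2 fold change was -0.37 for C3ar1 and -1.76 for C5ar1 (limma adjusted p = 0.0107 and 0.000398). C3ar1 lies on chromosome 6, 122847138 to 122856161, minus strand. With lysine the ranges of C3ar1 and C5ar1 overlapped, while with PBS C5ar1 exceeded C3ar1 in every sample.

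C1q opens the classical pathway by binding antibody on a target or the surface of dying cells. Its A, B and C chains are made from adjacent genes within 18.7 kb of chromosome 4, each with 3 exons on the minus strand, and enter the protein in equal numbers. C1qb (136880129 to 136886187) fell to 17.02, 15.58 and 23.68 TPM in lysine samples, against 40.06, 36.45 and 81.39 TPM in PBS samples. The groups did not overlap, and replicate 3 was the highest sample of each. The mean was 18.8 ± 4.32 TPM with lysine and 52.6 ± 24.97 TPM with PBS (SD, n = 3 each), 2.81-fold lower (log2 fold change -1.37 ± 0.32 SE, limma adjusted p = 0.0102). Without replicate 3 of both groups the log2 fold change of C1qb was -1.18 (limma adjusted p = 0.000815).

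C1qc (136889804 to 136893065) had 9.35, 14.31 and 20.4 TPM in lysine samples, against 18.32, 17.13 and 34.85 TPM in PBS samples. The groups overlapped, since lysine replicate 3 exceeded PBS replicates 1 and 2, and the gene did not pass the test (log2 fold change -0.63 ± 0.35 SE, limma adjusted p = 0.165). C1qa (136895917 to 136898803) was the lowest of the chain genes, at 2.55, 2.5 and 3.55 TPM in lysine samples, against 3.3, 3.55 and 6.11 TPM in PBS samples. Its groups overlapped too, and it did not pass (log2 fold change -0.43 ± 0.22 SE, limma adjusted p = 0.143). Without replicate 3 of both groups neither passed, with adjusted p = 0.0689 for C1qc and 0.0753 for C1qa in limma. In each of these genes replicate 3 was the highest sample of its group, and within each replicate number the lysine value was below the PBS value. With the replicate number as a block both were called lower (limma adjusted p = 0.0169 for C1qc and 0.0379 for C1qa). In that fit 7339 of the 12539 genes tested were called in either direction, 46.3% of them higher. The labels do not say that samples of the same number are paired.

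The shares of the chains were compared next. C1qb made up 58.9, 48.1 and 49.7% of the summed C1q TPM in lysine samples, against 64.95, 63.8 and 66.5% in PBS samples. The share of C1qa was 8.82, 7.72 and 7.45% with lysine, against 5.35, 6.21 and 4.99% with PBS. The share of C1qc was 32.3, 44.2 and 42.8% with lysine, against 29.7, 29.98 and 28.5% with PBS. For each chain the shares did not overlap between groups. The shares of a sample add up to the whole, so a lower share of C1qb goes with a higher share of the other chains together. They are therefore not separate results. The log2 ratio of C1qa to C1qb averaged -2.71 ± 0.057 with lysine and -3.57 ± 0.19 with PBS, a difference of 0.86. For C1qb to C1qc it averaged 0.40 ± 0.40 with lysine and 1.15 ± 0.069 with PBS, a difference of -0.747. Each gave p = 0.1 in a two-sided exact permutation test, and 0.15 when adjusted over the 3 chain ratios. The unadjusted value is the smallest that 3 samples against 3 allow, so no ratio could pass 0.05 in this design. The ratio of C1qa to C1qc overlapped between groups (difference 0.114, exact permutation p = 1), and its sign turned without lysine replicate 1 (-0.101), while it was 0.22 without lysine replicate 2 and 0.223 without lysine replicate 3. It was 0.188 without PBS replicate 2 and 0.067 without PBS replicate 3.

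**Figure D2:**
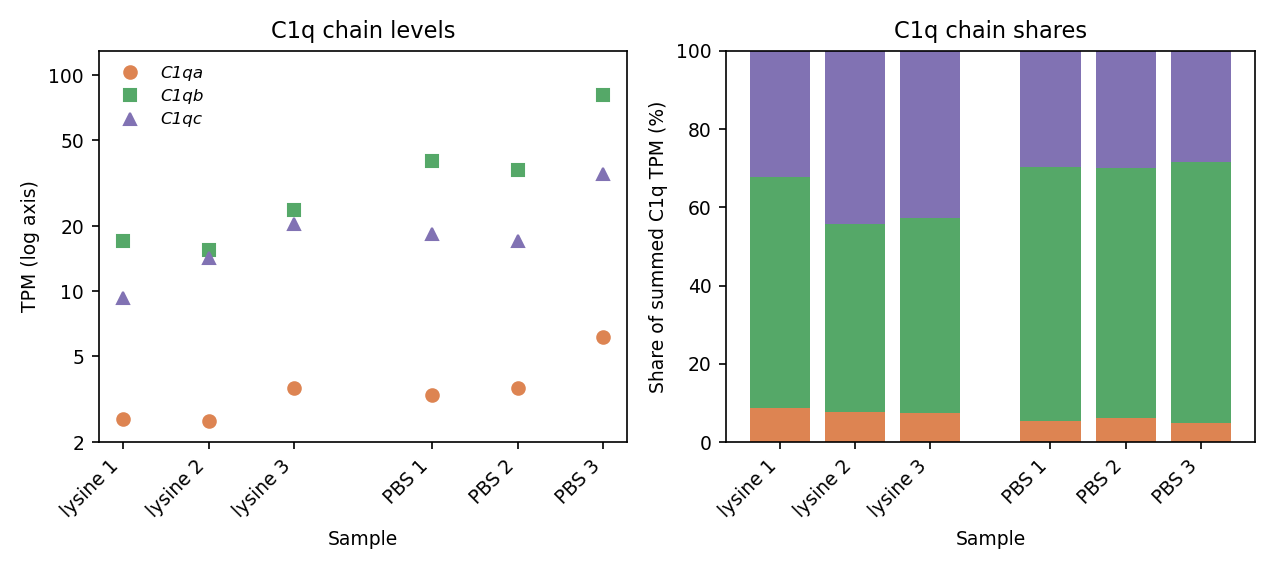
Left, TPM of the C1q chain genes in each sample on a log axis; right, each chain's share of their summed TPM in percent, with lysine samples left of PBS samples in both. C1qb holds 48.1 to 58.9% with lysine and 63.8 to 66.5% with PBS, and replicate 3 has the highest level of every chain in its group.

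The nearest tested genes outside the C1q genes did not fall. Kdm1a, a histone demethylase gene 277.4 kb away, averaged 19.98 TPM with lysine and 19.3 TPM with PBS (limma adjusted p = 0.669). Zbtb40, on the other side at 80.9 kb, rose, with 8.08 TPM with lysine and 5.82 TPM with PBS on average (limma adjusted p = 0.0294). The genes whose log2(TPM + 1) over the 6 samples was most like the mean standardised level of the C1q chains were Ndufb10, Pmvk and Colgalt1. Their Pearson correlations were 0.996, 0.996 and 0.995, over samples that fall into the 2 treatment groups and share the standing of replicate 3. Pmvk, for example, had 6.88, 7.92 and 11.3 TPM in lysine samples, against 11.98, 11.57 and 19.77 TPM in PBS samples, and did not pass the test (limma adjusted p = 0.0592).

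The components of the amplification loop were of very different abundance. Cfp, the gene of properdin, which stabilises the alternative pathway convertase, was the most abundant of all 9 genes. It had 513.33, 528.19 and 596.29 TPM in lysine samples, against 502.62, 509.01 and 564.37 TPM in PBS samples. The groups overlapped and the gene did not pass (log2 fold change 0.054 ± 0.078 SE, limma adjusted p = 0.582), with the sign turned under quantile normalization (-0.019) and without lysine replicate 3 (-0.011). For Cfp the log2 fold change was 0.042 without replicate 3 of both groups (limma adjusted p = 0.276). C3 had 150.74, 144.67 and 135.45 TPM in lysine samples, against 161.32, 149.12 and 144.15 TPM in PBS samples. These values overlapped as well, and C3 did not pass (log2 fold change -0.077 ± 0.067 SE, limma adjusted p = 0.366). Cfp lies on chromosome X, 20925454 to 20931555, and C3 on chromosome 17, 57203970 to 57228136.

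Cfb encodes factor B, the protease that joins C3b in the alternative convertase, and was scarce beside both. It fell to 3.64, 2.62 and 6.26 TPM in lysine samples, against 8.67, 7.7 and 10.41 TPM in PBS samples. No lysine value reached the lowest PBS value, though lysine replicate 3 came nearest. The means were 4.17 ± 1.88 TPM with lysine and 8.93 ± 1.37 TPM with PBS (SD, n = 3 each), 2.14-fold lower (log2 fold change -0.99 ± 0.26 SE, limma adjusted p = 0.0165). The call was lost without lysine replicate 1 (adjusted p = 0.0516) or without PBS replicate 3 (adjusted p = 0.0544), and held without replicate 3 of both groups (adjusted p = 0.00492 in limma). Cfb lies on chromosome 17, 34856374 to 34862518, minus strand, and overlaps nearly all along its length with the same-strand model Gm20547, which was listed at 0.02 TPM or less. Its nearest tested neighbour, Nelfe, encodes a subunit of the negative elongation factor. Nelfe is read from the opposite strand and ends at 34856372, directly beside Cfb. It fell as well, at 16.7 TPM with lysine and 35.98 TPM with PBS (limma adjusted p = 0.00197). Zbtb12, 17.0 kb to the other side, did not pass (2.33 TPM with lysine, 3.11 TPM with PBS). The sources used here do not say whether counting used strand, and whether reads of Nelfe were counted to Cfb was not tested.

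The order of the levels with lysine was Cfp, C3, C3ar1, C5ar1, C1qb, C1qc, Cfb, C1qa and C5ar2. The sample ranges of C3ar1 and C5ar1, of C5ar1 and C1qb, of C1qb and C1qc, and of Cfb and C1qa overlapped. With PBS the order was Cfp, C3, C5ar1, C1qb, C3ar1, C1qc, Cfb, C1qa and C5ar2, and of these neighbours only C1qb and C3ar1 overlapped in their ranges.

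**Figure D3:**
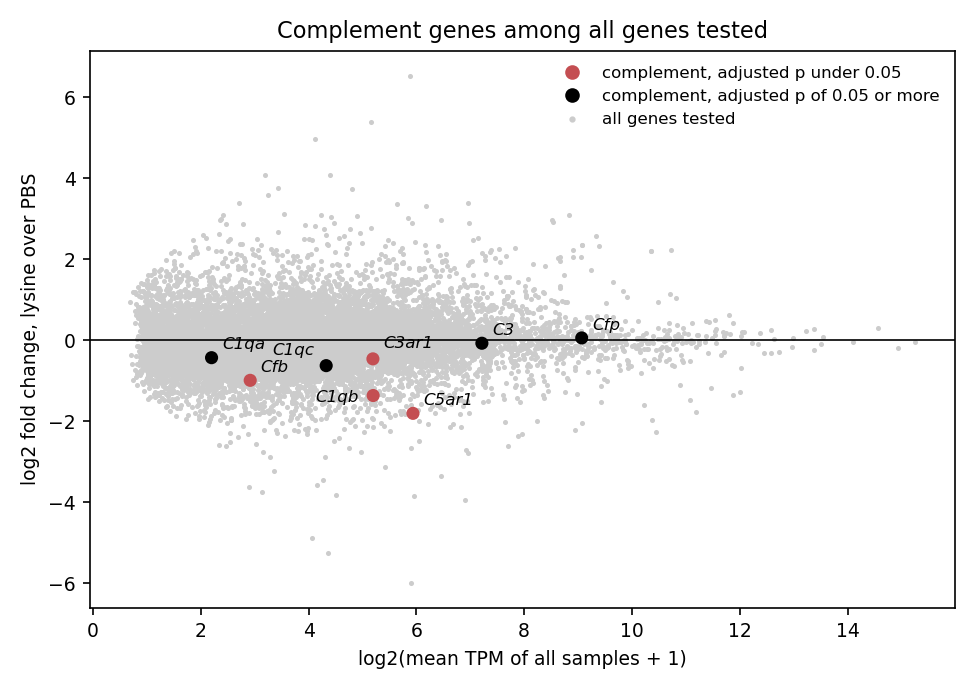
Log2 fold change of lysine over PBS against log2(mean TPM + 1) for the 12539 genes tested in grey, with the 8 tested complement genes called lower in red and not passed in black. C5ar1 lies at -1.81 and C1qb at -1.37, and C3 and Cfp lie near 0 among abundant genes.

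Beyond the 9 genes, 46 other complement genes were listed by role, and 13 passed the filter. Of these 13, 3 rose, 2 fell and 8 did not pass, beside 25.8% of all genes called higher and 29.3% called lower. The median log2 fold change of the 13 was -0.12. Of the other 33 genes, 11 were listed at 0 in all samples, and the highest single value among the 33 was 1.24 TPM.

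The integrin genes and Lrp1 were the most abundant of these genes. Itgam and Itgax pair with Itgb2 as complement receptors for C3b fragments. Itgb2 averaged 873.5 TPM with lysine and 907.8 TPM with PBS, Itgam 352 TPM with lysine and 395 TPM with PBS, and Itgax 378 TPM with lysine and 364 TPM with PBS. None of the integrin genes passed the test. Cd93, a transmembrane lectin-like protein once described as a C1q receptor, rose, with 38.22, 44.11 and 52.13 TPM in lysine samples, against 23.78, 26.01 and 22.87 TPM in PBS samples (log2 fold change 0.85 ± 0.12 SE, limma adjusted p = 0.00129). Lrp1, an endocytic receptor with many ligands, rose to 396 ± 20.5 TPM with lysine, against 231 ± 5.19 TPM with PBS (log2 fold change 0.77 ± 0.055 SE, limma adjusted p = 0.000103). C1qbp, a mostly mitochondrial protein that binds C1q, fell to 48.6 ± 3.09 TPM with lysine, against 67.4 ± 9.79 TPM with PBS (limma adjusted p = 0.0132).

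Of the genes that start the classical and lectin pathways, C1ra, which encodes the C1r protease, fell to 5.15 ± 0.636 TPM with lysine, against 7.82 ± 0.845 TPM with PBS (log2 fold change -0.52 ± 0.12 SE, limma adjusted p = 0.0104). C4a (1.68 TPM with lysine, 2.66 TPM with PBS) and the collectin Colec12 (2.05 TPM with lysine, 1.25 TPM with PBS) did not pass. C1ra and C4a have close copies in C1rb and C4b, among which reads may have been divided. Among regulators, Cr1l, which encodes the mouse convertase inhibitor Crry, was higher at 83.5 ± 1.74 TPM with lysine, against 75.5 ± 1.84 TPM with PBS (limma adjusted p = 0.0491). That call was lost in 11 of 14 alternatives, among them each of the 6 that left out 1 sample (limma adjusted p = 0.075 to 0.156). The fluid-phase inhibitor Clu (24.7 TPM with lysine, 26.6 TPM with PBS), the membrane attack inhibitor Cd59a (1.92 TPM with lysine, 2.17 TPM with PBS) and Cd55 did not pass. No gene of the terminal components, nor Cfd, the protease that cleaves factor B, passed the filter.

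**Figure D4:**
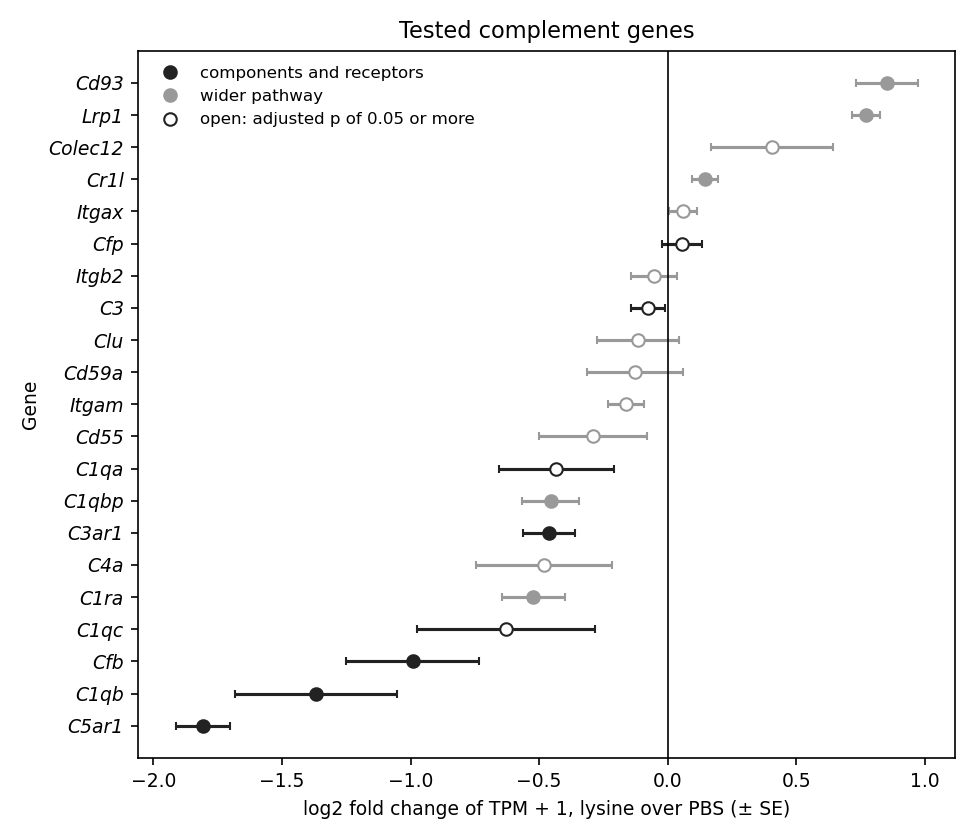
Log2 fold change of TPM + 1, lysine over PBS, with its SE for the 8 complement components and receptors tested (black) and the 13 wider complement genes tested (grey); filled points have an adjusted p under 0.05. Cd93 (0.85) and Lrp1 (0.77) lie to the right of 0, and C5ar1 (-1.81), C1qb (-1.37) and Cfb (-0.99) lie farthest to the left.

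Markers of other cells that make complement were read beside these results, and their counts stand beside the 29.3% of all genes tested that were called lower. Of 10 macrophage markers 7 were tested and 4 fell, among them Adgre1, Mertk and Fcgr1. The other tested macrophage markers, Cd68, Csf1r and Mrc1, did not pass. Mrc1 averaged 4.67 TPM with lysine and 4.52 TPM with PBS. All 10 summed to 796 to 843 TPM with lysine and 938 to 987 TPM with PBS. Most of that sum was Cd68 (490 TPM with lysine, 545 TPM with PBS) and Csf1r (249 TPM with lysine, 272 TPM with PBS), neither of which passed. Timd4 was listed at 0 in all samples and Cd163 did not exceed 0.11 TPM. Of 6 monocyte markers 5 were tested and 1 fell, Ccr2, with a sum of 361 to 424 TPM with lysine and 342 to 372 TPM with PBS, mostly Cd14. Ccr2 was near the filter with lysine (0.66, 0.32 and 1.97 TPM, against 2.57, 3.22 and 14.25 TPM with PBS). It passed the filter mainly through the PBS samples. Of 10 neutrophil markers 4 were tested and 1 fell, S100a8. The list summed to 37.7 to 45.8 TPM with lysine and 78.5 to 118 TPM with PBS, mostly S100a8. The other tested neutrophil markers, S100a9, Retnlg and Csf3r, did not pass, while Elane was listed at 0 and Mpo was at most 0.19 TPM. The part of these cells in the complement results was not tested.

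Of 10 dendritic cell markers all were tested, 1 rose (Irf4) and 2 fell (Ciita and Batf3), beside 25.8% of all genes called higher and 29.3% called lower. Of the 6 T and NK cell markers 4 were tested and none passed. The dendritic sum was 4262 to 6012 TPM with lysine and 3946 to 6243 TPM with PBS. In the mast cell and basophil list 2 of 6 were tested and Cpa3 fell. It had 0.24, 0.43 and 0.6 TPM in lysine samples, against 6.09, 4.83 and 2.24 TPM in PBS samples. Cpa3 reached 1 TPM only with PBS and so entered the test through the group where it was higher. The list summed to 3.92 to 5.31 TPM with lysine and 5.35 to 11.29 TPM with PBS. Kit, highest in the mean over all samples, had 4.17 TPM with lysine and 2.76 TPM with PBS and did not pass. In the erythroid and megakaryocyte list 2 of 6 were tested and Pf4 fell (215 TPM with lysine, 469 TPM with PBS), a gene that myeloid cells also express. No B cell marker was tested (Cd79b 0.98 TPM with lysine and 0.897 TPM with PBS), and the single tested stromal or endothelial marker, Pecam1, did not pass (7.73 TPM with lysine, 10.24 TPM with PBS). The part of all these cells in the complement results was likewise not tested.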

How the data were processed

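RNA-seq values of 6 samples were used, 3 per group. The authors deposited TPM with 2 decimals for 55740 gene models, and each column sums to 1000000. RSEM quantified abundances according to the series' design text. The submitters' processing notes also list HISAT2, StringTie, edgeR and the build GRCm38.p6, without roles or versions. Annotation, strand use and RNA selection were not found in the labels. TPM keeps no depth, so no counting error or count test could be given. The treated columns are headed K, the code letter for lysine, and were assigned by that letter and the replicate number.

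From these values, log2(TPM + 1) was tested with limma 3.58.1 in R 4.3.3, keeping genes that reached 1 TPM in 3 or more samples. Between 12277 and 12449 genes reached 1 TPM per sample, and the correlation between samples was 0.974 to 0.982 within groups and 0.914 to 0.934 between them. Ratios were tested by exact permutation (scipy 1.17.1). Positions came from GENCODE M21 (GRCm38), which held 93.5% of identifiers. The test was also run on simulated data in which few genes changed and samples varied independently. Many more genes were called here, so that run does not vouch for these calls. The genes and lists were chosen with earlier results of these data known. By rule the text names all 9 genes, all tested pathway genes (with values for the 12 most abundant), the nearest tested neighbours, the 3 most alike genes and the top marker of each list. Other markers were named after their values were seen. A marker gene counted in its list is not reported here by name.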

Additional observations from a re-analysis of the deposited data

How the results depend on the processing

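Alternatives were a replicate block, a pseudocount of 0.1 TPM, no filter, a filter of 5 TPM, median-of-ratios scaling, quantile normalization, limma without trend and leaving out each sample; leaving out replicate 3 of both groups was added after seeing the data. C1qb, C3ar1 and C5ar1 were called lower in all of these, and C3 in none. Cfb lost its call without lysine replicate 1 or PBS replicate 3, and C1qa was not tested under the filter of 5 TPM. With no filter C5ar2 was called lower as well. The fold change of Cfp, not called anywhere, turned to -0.019 under quantile normalization and ranged from -0.011 to 0.11 with 1 sample left out; the cause was not tested. Samples with the same number share only that number: their deviations correlated by 0.171, 0.092 and 0.245, though each of the 6 correlated best with its own number, a hint from the data and not from the design. With the replicate block, 6 of the 8 complement genes were called lower in limma, C1qa (adjusted p = 0.0379) and C1qc (0.0169) besides the 4. That fit called 7339 of all 12539 genes tested, 46.3% of them higher and the rest lower. Adding 1 TPM to both genes moved the C5ar1 to C5ar2 difference to -1.17, as C5ar2 lies near 1 TPM. Depth, which limits genes near 1 TPM, is unknown.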
